A study of Mus musculus with 10 samples.

Results

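The Slc25 genes encode the mitochondrial carrier family, and 39 genes whose symbols begin with Slc25a were examined among the 13809 genes of the deposited table. All 39 were tested with the 13755 genes that reached 10 normalized reads in at least 2 libraries. 1 further symbol with this beginning was not analysed here. In the following, the family and its members mean the 39 genes examined. Carriers of the same family with other symbols, such as Ucp1, Ucp2 and Ucp3, are counted apart among related genes. The cells were taken from bone marrow of 12-week-old C57BL/6 mice, and no group is labelled with a genetic change. Resident macrophages, labelled CD163+, were the ferromagnetic cells that a magnetic column held back without any staining, and they were given lipopolysaccharide (LPS) at 1 µg/ml for 4 h (3 libraries) or left untreated (3 libraries). Bone marrow derived macrophages (BMDM), labelled CD163-, were grown from the column's flow-through in 20% L929 cell supernatant, with 6 days of culture stated in the protocol and 7 in the sample titles, and were given the same LPS treatment (2 libraries) or left untreated (2 libraries). Whether the libraries of a group are separate animals or cultures is not labelled, and the tests rest on the spread among libraries, which may be technical.

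Carriers of this family sit mostly in the inner mitochondrial membrane and exchange metabolites, nucleotides, cofactors and ions between the cytosol and the matrix. They set how much citrate, malate, aspartate and glutamate crosses the membrane, how ADP and phosphate reach the ATP synthase, and how cofactors such as CoA and NAD+ enter. In macrophages given LPS, citrate and other carboxylates of the matrix feed the making of lipids and itaconate. A few members are placed in the outer mitochondrial membrane or in peroxisomes.

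Recovered read totals ran from 27.1 to 37.7 M per library. Macrophage markers made up 0.770 to 0.952% of the normalized reads in LPS-treated resident libraries, 0.833 to 1.12% in untreated resident libraries, 1.45 to 1.52% in LPS-treated BMDM and 2.08 to 2.26% in untreated BMDM, and all 12 markers stood above 10 normalized reads in every library. Transcripts of other marrow cells were also present in the resident libraries. The 17 erythroid markers summed to 0.140 to 0.177% in LPS-treated and 0.122 to 0.191% in untreated resident libraries, against 0.00387 to 0.00403% in LPS-treated and 0.00450 to 0.00547% in untreated BMDM, where Hbb-bt and Slc4a1 were at the table's lowest value, 1, in every library. The 17 neutrophil markers summed to 1.24 to 1.47% and 0.782 to 1.62% in the LPS-treated and untreated resident libraries, against 0.0195 to 0.0205% and 0.0106% in LPS-treated and untreated BMDM. In such bulk libraries, fewer cells of a type and less RNA per cell cannot be told apart. The Y-linked gene Ddx3y was at 1975 and 1856 normalized reads in replicate 1 of the LPS-treated and of the untreated resident groups and at 1 in the other libraries.

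The summed level of the family was 42226 to 42981 normalized reads in LPS-treated resident libraries, 44419 to 46555 in untreated resident libraries, 57962 to 59074 in LPS-treated BMDM and 51014 to 51995 in untreated BMDM. The family made up 0.133 to 0.141% of normalized reads in LPS-treated resident libraries and 0.150 to 0.167% in untreated resident libraries. Its shares were 0.150 to 0.152% in LPS-treated BMDM and 0.200 to 0.207% in untreated BMDM, the opposite order to the BMDM sums. All normalized reads totalled 38.6 to 38.77 M in LPS-treated BMDM libraries and 24.7 to 25.96 M in untreated ones. Slc25a3, the phosphate carrier, and Slc25a5, an ADP/ATP carrier, made up 35.5 to 37.8% of the family's summed level in LPS-treated resident libraries, 36.3 to 37.9% in untreated resident libraries, 32.8 to 33.4% in LPS-treated BMDM and 38.6% in both untreated BMDM libraries. Per kilobase of transcript, Slc25a3 averaged 6326 normalized reads in LPS-treated resident macrophages, 7047 in untreated resident macrophages, 7427 in LPS-treated BMDM and 7506 in untreated BMDM. On the same per-kilobase scale Slc25a5 stood at 5858, 5954, 7591 and 7923 in those groups. These carriers held the first and second rank in all 4 groups. The third rank went to Slc25a22, a glutamate carrier, in LPS-treated resident macrophages, untreated resident macrophages and LPS-treated BMDM, with 1307, 1157 and 2365 normalized reads per kilobase. In untreated BMDM, Slc25a22 was at rank 15 with 286, and the third rank was held by Slc25a4 with 2236 normalized reads per kilobase.

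**Figure D1:**
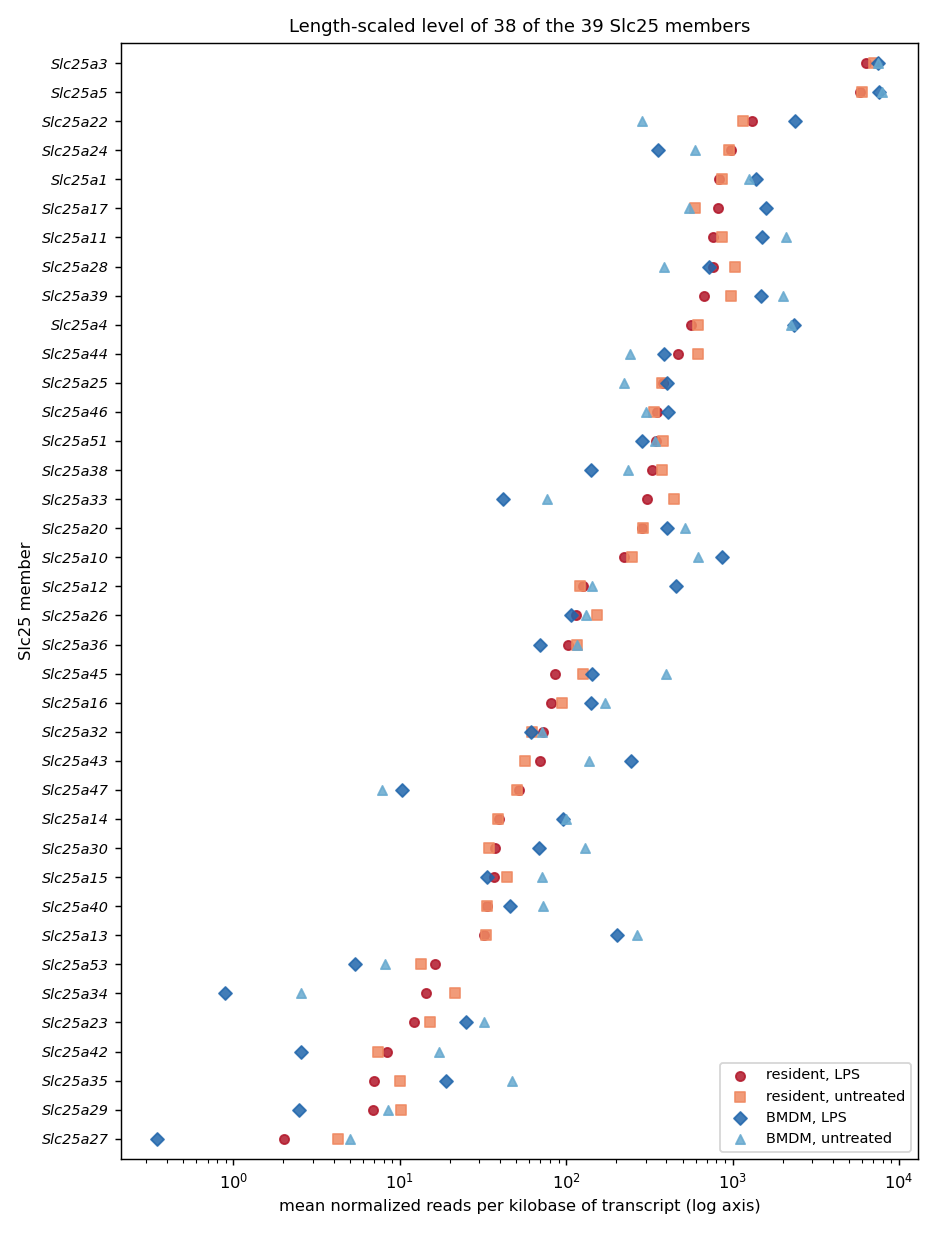
Mean normalized reads per kilobase of transcript (log axis) of 38 of the 39 Slc25 members, ordered by the level in LPS-treated resident macrophages; symbols mark the 4 groups (3 libraries each for resident, 2 each for BMDM). Slc25a3 and Slc25a5 lie to the right of all other members in every group, and Slc25a22 in untreated BMDM lies far left of its other 3 groups.

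The first comparison asked how 4 h of LPS changed the carriers in each kind of macrophage. In BMDM, 9 members rose and 16 fell, where 28.3% of all tested genes rose and 29.5% fell, so the rising share of the family was near that of all genes and the falling share above it, with no test of that excess. In resident macrophages, 1 member rose and 4 fell, where 7.36% of all tested genes rose and 5.57% fell. A gene is said to rise, fall or differ where the limma adjusted p is under 0.05. The median log2 difference over the 39 members was -0.30 in BMDM, where the median of all tested genes was -0.04, and -0.15 in resident macrophages, where it was 0.00. With resident libraries fitted alone, 0 members rose and 0 fell at an adjusted p under 0.05 in limma, where 363 of all 13755 genes rose and 166 fell. Every resident LPS call of a member given below was thus lost in that fit. At an unadjusted p under 0.05, 1 member rose and 6 fell in that fit, and 1 rose and 9 fell in the fit of all libraries. In BMDM, scaling all libraries to equal totals, summed without the gene Rn45s, ended the rises of Slc25a43 (0.19) and Slc25a44 (0.04). Quantile normalization there ended the calls of Slc25a10 (0.23), Slc25a46 (0.19), Slc25a33 (-0.42), Slc25a34 (-1.02) and Slc25a40 (-0.28).

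The LPS responses differed between origins for shares of the members near those of all genes. The LPS response in resident macrophages minus that in BMDM passed above 0 for 9 members (23.1%) and below 0 for 8 (20.5%), against 19.0% and 22.8% of all tested genes. Every member that differed this way had risen or fallen in BMDM, namely 8 of the 9 that rose and 9 of the 16 that fell. Both contrasts use the BMDM libraries, so such an overlap is partly built in, and it was not counted over all genes. 1 member, Slc25a28, fell in resident macrophages and rose in BMDM. Slc25a17 rose in both, and Slc25a33, Slc25a39 and Slc25a45 fell in both. 14 members passed in neither origin. Differences of responses were lost with equal library totals for Slc25a10 (-0.11) and with quantile normalization for Slc25a15 (0.43), Slc25a36 (0.45), Slc25a38 (0.28), Slc25a40 (0.29) and Slc25a46 (-0.15).

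**Figure D2:**
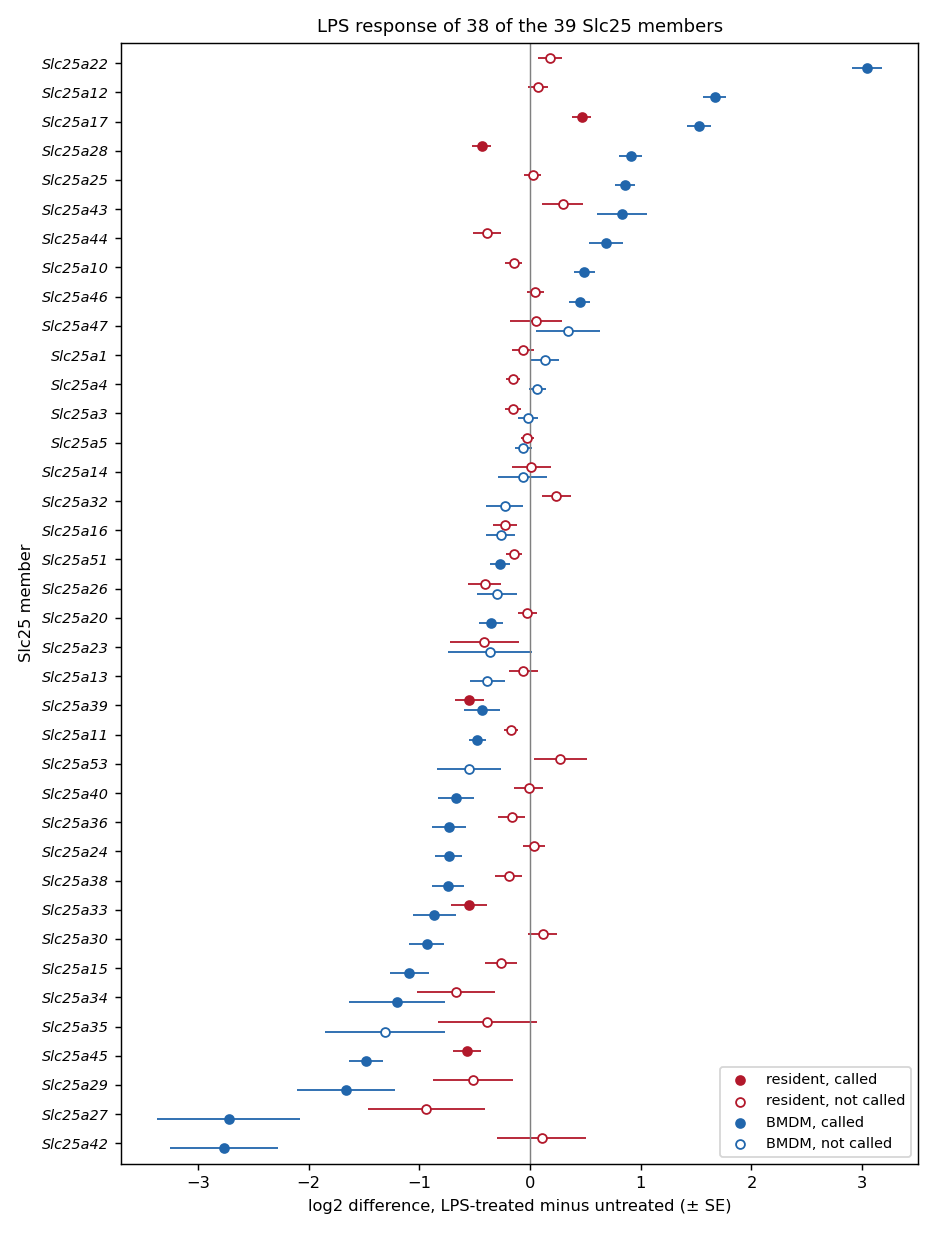
Log2 difference between LPS-treated and untreated libraries (horizontal axis, bars ± SE from limma) for 38 of the 39 members in resident macrophages (red) and BMDM (blue); filled points have an adjusted p under 0.05. The BMDM points spread from -2.76 for Slc25a42 to 3.05 for Slc25a22, and the resident points with an adjusted p under 0.05 lie between -0.57 and 0.46.

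Amino acid carriers held the largest rise and several falls. Slc25a22, which brings glutamate into mitochondria, had 3234, 3970.0 and 3817 normalized reads in LPS-treated resident libraries, against 2939, 3770.2 and 3046 in untreated resident libraries. It had 7002 and 6295 in LPS-treated BMDM, against 831 and 776 in untreated BMDM. The BMDM libraries given LPS lay above every other library, the resident groups overlapped, and untreated BMDM lay lowest. The LPS difference was 3.05 ± 0.14, adjusted p = 2.03e-08 in BMDM and 0.18 ± 0.11, adjusted p = 0.342 in resident macrophages (log2 ± SE, as in the following), and the difference between these responses was -2.87 ± 0.17, adjusted p = 5.58e-07. Slc25a12, the aspartate-glutamate carrier also called aralar, had 761, 812 and 842 normalized reads in LPS-treated resident libraries, against 673, 827 and 809 in untreated resident libraries. It had 2842 and 2922 in LPS-treated BMDM, against 919 and 896 in untreated BMDM. The rise in BMDM was 1.67 ± 0.11, adjusted p = 3.88e-07, the resident groups overlapped (0.07 ± 0.09, adjusted p = 0.684), and the responses differed by -1.60 ± 0.14, adjusted p = 8.13e-06. Slc25a13, the other aspartate-glutamate carrier, known as citrin, had 93.3, 115 and 90.3 normalized reads in LPS-treated resident libraries, against 112, 94.99 and 103 in untreated resident libraries. It had 642 and 623 in LPS-treated BMDM, against 802 and 852 in untreated BMDM. Its BMDM groups did not overlap, but the LPS difference of -0.39 ± 0.16, adjusted p = 0.0572 missed the threshold, so the paralogs differed in which one passed, without a test between them.

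The window upstream of Slc25a22 is shown because it carried the largest LPS rise, that of Slc25a12 because it rose next most, that of Slc25a28 because it fell in resident macrophages and rose in BMDM, and that of Slc25a15 because it fell in BMDM while holding the same short motif as Slc25a22. The windows hold 250 bases before to 50 bases after an annotated start of the gene, in the direction of transcription, from RefSeq on build GRCm38.p6, and capitals mark motifs found by search.
Slc25a22, chr7:141435326-141435625, minus strand: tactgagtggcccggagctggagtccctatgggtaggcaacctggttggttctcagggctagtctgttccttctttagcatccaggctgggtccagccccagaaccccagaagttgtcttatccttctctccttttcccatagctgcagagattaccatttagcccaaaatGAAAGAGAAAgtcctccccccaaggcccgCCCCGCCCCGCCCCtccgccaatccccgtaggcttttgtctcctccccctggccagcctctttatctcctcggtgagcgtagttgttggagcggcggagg
Slc25a12, chr2:71367706-71368005, minus strand: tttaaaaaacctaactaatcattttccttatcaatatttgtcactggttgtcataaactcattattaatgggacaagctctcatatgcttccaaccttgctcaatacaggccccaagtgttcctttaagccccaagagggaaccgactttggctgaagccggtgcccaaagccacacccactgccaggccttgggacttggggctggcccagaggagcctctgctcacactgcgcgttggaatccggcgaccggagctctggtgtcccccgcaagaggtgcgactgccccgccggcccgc
Slc25a28, chr19:43674832-43675131, minus strand: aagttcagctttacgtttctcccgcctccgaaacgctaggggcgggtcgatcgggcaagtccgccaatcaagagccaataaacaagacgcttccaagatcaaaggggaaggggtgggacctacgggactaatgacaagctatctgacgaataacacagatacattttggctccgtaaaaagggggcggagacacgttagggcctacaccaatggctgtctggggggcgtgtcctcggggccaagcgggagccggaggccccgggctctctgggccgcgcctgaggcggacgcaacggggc
Slc25a15, chr8:22398572-22398871, minus strand: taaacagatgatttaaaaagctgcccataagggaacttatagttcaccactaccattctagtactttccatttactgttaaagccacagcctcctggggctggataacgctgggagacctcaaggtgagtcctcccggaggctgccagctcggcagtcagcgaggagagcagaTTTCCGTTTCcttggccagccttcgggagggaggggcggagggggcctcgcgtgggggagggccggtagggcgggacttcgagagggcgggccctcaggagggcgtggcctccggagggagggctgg
Of the 39 members, 31 matched a window, and Slc25a22 and Slc25a15 matched more than the one shown. Those without one included Slc25a26, Slc25a27, Slc25a32, Slc25a35, Slc25a44, Slc25a46 and Slc25a51. Both strands were searched, and motifs may overlap, as the paired GC boxes of Slc25a22 do. The printed Slc25a22 window lies at an internal start and is the only window of that gene with a motif searched here. The window at the gene's outer start, chr7:141437825-141438124, held none. The Slc25a15 window not printed held an E-box. The interferon-stimulated response element core (GAAA, any 2 bases, GAAA) was in windows of 2 members, Slc25a22 and Slc25a15, and in 3.99% of all genes with a window. The kappaB core (GGG, any 2 bases, TTTCC) was in 0 of 31 members and 1.89% of genes. The GC box GGGGCGGGG was in 5 members and 12.9% of genes, the ETS core CCGGAAG in 6 members and 9.93% of genes, the E-box CACGTG in 6 members and 8.09%, the CRE TGACGTCA in 2 members and 2.03%, and the NRF1 core (GCGC, any 2 bases, GCGC) in 2 members and 7.00%. The printed Slc25a12 and Slc25a28 windows held none of these 7 motifs.

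The remaining amino acid and glutathione carriers mostly fell in BMDM, where 29.5% of all tested genes fell and 28.3% rose. Slc25a15, the ornithine carrier of the urea cycle, had 126, 138 and 115 normalized reads in LPS-treated resident libraries, against 136, 145 and 174 in untreated resident libraries, and 111 and 119 in LPS-treated BMDM, against 251 and 241 in untreated BMDM. A fall in BMDM was seen (-1.09 ± 0.17, adjusted p = 0.000355), the resident groups overlapped, and the responses differed by 0.83 ± 0.22, adjusted p = 0.0138, a call lost without untreated BMDM replicate 1 (adjusted p = 0.0588) or LPS-treated BMDM replicate 1 (adjusted p = 0.0545). Slc25a38, which carries glycine for heme synthesis, had 618, 557 and 578 normalized reads in LPS-treated resident libraries, against 753, 688 and 575 in untreated resident libraries, and 279.7 and 228 in LPS-treated BMDM, against 432 and 413 in untreated BMDM. The BMDM libraries fell with LPS (-0.74 ± 0.15, adjusted p = 0.00147), while in resident macrophages the groups overlapped (-0.19 ± 0.12, adjusted p = 0.344). The difference of responses, 0.55 ± 0.19, adjusted p = 0.0405, was lost when any of the resident libraries other than untreated replicate 1, or any BMDM library other than LPS-treated replicate 1, was left out (adjusted p from 0.0519 to 0.175). Slc25a44, a carrier of branched-chain amino acids, had 1697, 1532 and 1815 normalized reads in LPS-treated resident libraries, against 2667, 1799 and 2202 in untreated resident libraries, and 1409.8 and 1371 in LPS-treated BMDM, against 843 and 882 in untreated BMDM. It rose in BMDM (0.69 ± 0.15, adjusted p = 0.00321), its resident LPS difference was -0.39 ± 0.13, adjusted p = 0.0734, and the responses differed by -1.08 ± 0.20, adjusted p = 0.00161.

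The glutathione carriers gave smaller changes. Slc25a39 had 1382, 1041 and 976 normalized reads in LPS-treated resident libraries, against 1894, 1599 and 1449 in untreated resident libraries, and 2487 and 2492 in LPS-treated BMDM, against 3333 and 3405 in untreated BMDM. The LPS-treated libraries lay lower in both origins, with log2 differences of -0.55 ± 0.13, adjusted p = 0.0236 in resident macrophages and -0.44 ± 0.16, adjusted p = 0.0404 in BMDM. The resident call was lost without untreated resident replicate 2 (adjusted p = 0.0531) or LPS-treated resident replicate 2 (0.0872) or 3 (0.0786). The BMDM call was lost without any 1 BMDM library or without untreated resident replicate 2 (adjusted p = 0.0529). Limma without its trend ended both calls. Slc25a40, its close relative, had 89.6, 101 and 87.3 normalized reads in LPS-treated resident libraries, against 96.3, 89.3 and 94.3 in untreated resident libraries, and 129 and 126 in LPS-treated BMDM, against 197 and 208 in untreated BMDM. The BMDM fall was -0.67 ± 0.16, adjusted p = 0.00529, the resident groups overlapped, and the responses differed by 0.65 ± 0.21, adjusted p = 0.0304, a call lost without any 1 BMDM library or without replicate 2 of either resident group (adjusted p from 0.0587 to 0.115). Slc25a29, a carrier of basic amino acids, had 9.24, 17.2 and 14.7 normalized reads in LPS-treated resident libraries, against 15.2, 18.05 and 26.7 in untreated resident libraries, and 3.08 and 6.77 in LPS-treated BMDM, against 18.2 and 15.5 in untreated BMDM. The LPS-treated BMDM values rest on 3 and 5 reads, and the fall (-1.66 ± 0.45, adjusted p = 0.00867) was lost without untreated BMDM replicate 1 (adjusted p = 0.0568) or LPS-treated BMDM replicate 1 (0.0810).

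**Figure D3:**
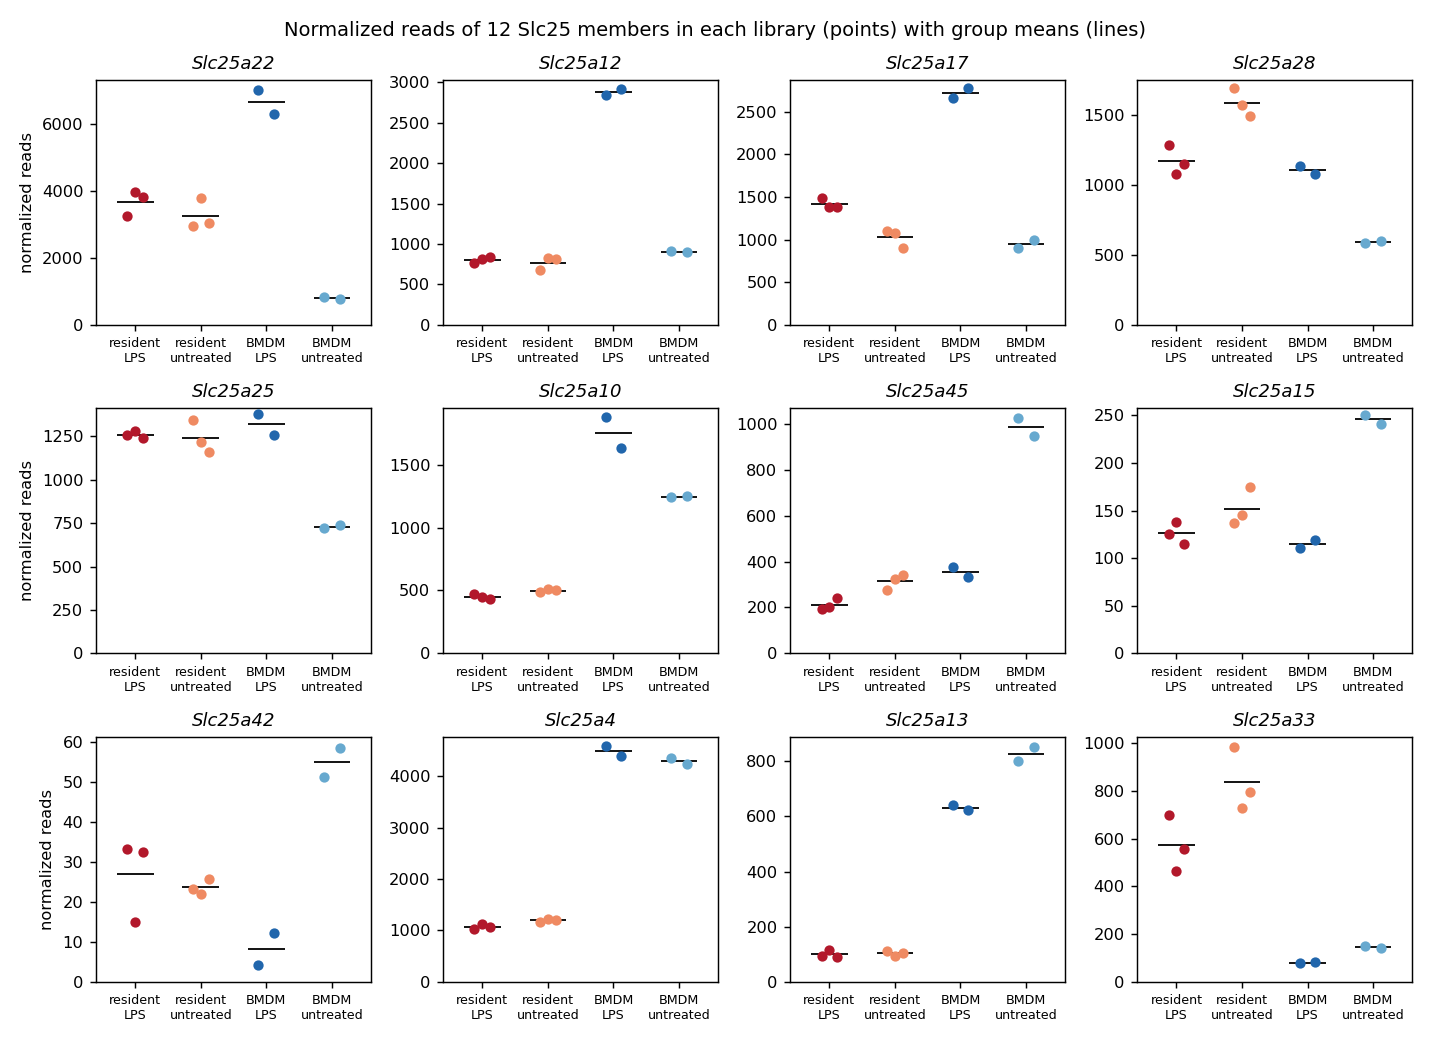
Normalized reads of 12 members (vertical axes start at 0) in each library, with horizontal lines at the group means; 3 libraries in each resident group and 2 in each BMDM group. Slc25a22, Slc25a12 and Slc25a17 have their highest points in LPS-treated BMDM, and Slc25a45, Slc25a15 and Slc25a42 have theirs in untreated BMDM.

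Among the adenine nucleotide and phosphate carriers, the peroxisomal member rose and the abundant ADP/ATP and phosphate carriers did not pass the test. Slc25a17, which carries CoA, FAD and NAD+ into peroxisomes, had 1483, 1378 and 1381 normalized reads in LPS-treated resident libraries, against 1098, 1080.0 and 905 in untreated resident libraries, and 2663 and 2784 in LPS-treated BMDM, against 899 and 997 in untreated BMDM. LPS-treated libraries lay above untreated ones in both origins, with rises of 0.46 ± 0.09, adjusted p = 0.00832 in resident macrophages and 1.52 ± 0.11, adjusted p = 7.33e-07 in BMDM, and the resident rise was smaller (-1.06 ± 0.14, adjusted p = 0.000156). It was the only one of the 39 members to rise in resident macrophages in the fit of all libraries. Slc25a3 had 8995, 8473 and 7983 normalized reads in LPS-treated resident libraries, against 9597, 9786 and 8965 in untreated resident libraries, and 10174 and 9746 in LPS-treated BMDM, against 9870.5 and 10259 in untreated BMDM. Slc25a5, whose reads may be shared with processed copies of the gene, had 7264, 7506 and 7022 normalized reads in LPS-treated resident libraries, against 7309, 7406 and 7433 in untreated resident libraries, and 9199 and 9627 in LPS-treated BMDM, against 9830.4 and 9818 in untreated BMDM. Neither passed the LPS test, with differences of -0.16 ± 0.07 and -0.02 ± 0.06 in resident macrophages and -0.02 ± 0.09 and -0.06 ± 0.08 in BMDM. Slc25a4, the ADP/ATP carrier of muscle and heart, had 1022, 1134 and 1073 normalized reads in LPS-treated resident libraries, against 1159, 1223 and 1199 in untreated resident libraries, and 4597 and 4409 in LPS-treated BMDM, against 4357 and 4253 in untreated BMDM. It passed in neither origin after LPS (-0.15 ± 0.06, adjusted p = 0.152 in resident macrophages and 0.06 ± 0.08, adjusted p = 0.509 in BMDM).

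The calcium-regulated ATP-Mg/phosphate carriers did not move together. Slc25a25 had 1261, 1284 and 1239 normalized reads in LPS-treated resident libraries, against 1344, 1221 and 1162 in untreated resident libraries, and 1379.9 and 1259.7 in LPS-treated BMDM, against 721 and 737 in untreated BMDM. It rose in BMDM (0.85 ± 0.09, adjusted p = 1.84e-05), where the LPS-treated values reached those of resident macrophages, and its resident groups overlapped, with a difference of responses of -0.83 ± 0.12, adjusted p = 0.000272. Slc25a24 had 2965, 3342 and 3768 normalized reads in LPS-treated resident libraries, against 3037, 3187 and 3555 in untreated resident libraries, and 1165 and 1283 in LPS-treated BMDM, against 1927 and 2148 in untreated BMDM. The fall in BMDM was -0.73 ± 0.12, adjusted p = 0.000482, and the resident groups overlapped. The responses differed by 0.77 ± 0.16, adjusted p = 0.00296. Slc25a23, at 21.2 to 108 normalized reads over all libraries, passed in neither origin. Of these 3 paralogs, 1 rose, 1 fell and 1 did not pass in BMDM.

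The carboxylate carriers exchange citrate, malate and oxoglutarate. Slc25a10, the dicarboxylate carrier that exchanges malate and succinate for phosphate, had 472, 449.7 and 432 normalized reads in LPS-treated resident libraries, against 489.6, 509 and 500.1 in untreated resident libraries, and 1879.7 and 1632 in LPS-treated BMDM, against 1243 and 1251 in untreated BMDM. It rose in BMDM (0.49 ± 0.10, adjusted p = 0.00135), did not pass in resident macrophages (-0.15 ± 0.08, adjusted p = 0.26), and the responses differed by -0.64 ± 0.12, adjusted p = 0.00212. With all libraries scaled to equal totals the BMDM difference of Slc25a10 turned to -0.16 (adjusted p = 0.237). Slc25a11, the oxoglutarate carrier of the malate-aspartate shuttle, had 1338, 1290.0 and 1309 normalized reads in LPS-treated resident libraries, against 1383, 1524 and 1529.8 in untreated resident libraries, and 2509 and 2602 in LPS-treated BMDM, against 3532 and 3588 in untreated BMDM. It fell in BMDM (-0.48 ± 0.08, adjusted p = 0.000379), and the difference of responses, 0.31 ± 0.10, adjusted p = 0.0308, was lost without any 1 BMDM library (adjusted p from 0.0696 to 0.117). Slc25a1, the citrate carrier, had 1543, 1221 and 1391 normalized reads in LPS-treated resident libraries, against 1645, 1373 and 1324 in untreated resident libraries, and 2349.6 and 2247 in LPS-treated BMDM, against 2102 and 2083 in untreated BMDM. It did not pass in either origin (-0.06 ± 0.10, adjusted p = 0.764 in resident macrophages and 0.13 ± 0.13, adjusted p = 0.391 in BMDM).

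Cofactor, nucleotide and carnitine carriers fell or did not pass in BMDM, with 5 of 9 falling and none rising. Among all tested genes, 29.5% fell and 28.3% rose there, and the difference from that share was not tested. Slc25a42, a CoA carrier, had 33.2, 15.03 and 32.4 normalized reads in LPS-treated resident libraries, against 23.2, 21.8 and 25.7 in untreated resident libraries, and 4.11 and 12.2 in LPS-treated BMDM, against 51.05 and 58.5 in untreated BMDM. The LPS-treated BMDM values correspond to 4 and 9 reads, the fall was -2.76 ± 0.49, adjusted p = 0.000704, and the responses differed by 2.86 ± 0.63, adjusted p = 0.0045, more than for any other member above 0. Slc25a36, a pyrimidine nucleotide carrier, had 536, 530.2 and 546 normalized reads in LPS-treated resident libraries, against 728, 499 and 604 in untreated resident libraries, and 352 and 375 in LPS-treated BMDM, against 599.8 and 607 in untreated BMDM. Its BMDM fall was -0.73 ± 0.15, adjusted p = 0.00197, and the difference of responses, 0.56 ± 0.20, adjusted p = 0.0408, was lost when any library but untreated resident replicate 1 was left out (adjusted p from 0.0546 to 0.131). Slc25a33, the other pyrimidine nucleotide carrier, had 699, 466 and 555 normalized reads in LPS-treated resident libraries, against 982, 728 and 797 in untreated resident libraries, and 77.1 and 81.3 in LPS-treated BMDM, against 149 and 141 in untreated BMDM. LPS-treated libraries lay lower in both origins, with falls of -0.55 ± 0.16, adjusted p = 0.0488 in resident macrophages and -0.87 ± 0.20, adjusted p = 0.00334 in BMDM. Quantile normalization and limma without its trend each ended the resident call. The resident fall of Slc25a33 was lost when any library other than LPS-treated resident replicate 1 was left out (adjusted p from 0.0528 to 0.159).

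Slc25a20, the carnitine-acylcarnitine carrier that admits long-chain fatty acids for oxidation, had 490.4, 542 and 492 normalized reads in LPS-treated resident libraries, against 491, 561 and 500.1 in untreated resident libraries, and 727 and 709.8 in LPS-treated BMDM, against 876 and 963 in untreated BMDM. Its fall in BMDM, -0.35 ± 0.11, adjusted p = 0.0157, was lost without untreated BMDM replicate 2 (adjusted p = 0.126) or LPS-treated BMDM replicate 1 (0.0575) or 2 (0.0801). Slc25a51, which carries NAD+, ranged from 1245 to 1774 normalized reads over all libraries and fell by little in BMDM (-0.27 ± 0.09, adjusted p = 0.0207), a call lost without any 1 BMDM library (adjusted p from 0.0671 to 0.113). Slc25a16, Slc25a26 and Slc25a32 passed in neither origin. They are linked to CoA, S-adenosylmethionine and folate or FAD, and they spanned 202 to 541 normalized reads. Slc25a26 and Slc25a32 passed in none of the 5 contrasts.

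Slc25a28, mitoferrin 2, which brings iron into mitochondria of non-erythroid cells, was the member whose LPS changes ran in opposite directions. It had 1287, 1083 and 1154 normalized reads in LPS-treated resident libraries, against 1699, 1577 and 1492 in untreated resident libraries, and 1140.3 and 1079.6 in LPS-treated BMDM, against 584 and 597 in untreated BMDM. In resident macrophages the LPS-treated libraries lay below the untreated ones (-0.44 ± 0.08, adjusted p = 0.00854), and in BMDM they lay above them (0.91 ± 0.10, adjusted p = 2.67e-05). The difference of responses was -1.35 ± 0.13, adjusted p = 1.82e-05. After LPS both origins lay between 1079.6 and 1287 normalized reads, and the groups overlapped. With resident libraries fitted alone the resident fall had an adjusted p of 0.056.

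The members related to uncoupling proteins fell or did not pass in BMDM. Slc25a30 had 145, 127 and 129 normalized reads in LPS-treated resident libraries, against 128, 112 and 129.5 in untreated resident libraries, and 224 and 267 in LPS-treated BMDM, against 453 and 483 in untreated BMDM. It fell in BMDM (-0.93 ± 0.16, adjusted p = 0.000519), with overlapping resident groups and a difference of responses of 1.04 ± 0.20, adjusted p = 0.00217. Slc25a27 was at the low end of the table, with 8.31, 3.22 and 5.89 normalized reads in LPS-treated resident libraries, against 6.24, 14.2 and 16.2 in untreated resident libraries, and 1.03 and 1.00 in LPS-treated BMDM, against 22.8 and 6.40 in untreated BMDM. The LPS-treated BMDM values correspond to 1 read and to the table's lowest value, so its fold depends on the pseudocount and is not given, and the fall had an adjusted p of 0.00441, lost without untreated BMDM replicate 1 (0.0564). Slc25a14 had 62.8, 69.8 and 53.98 normalized reads in LPS-treated resident libraries, against 49.9, 71.2 and 64.8 in untreated resident libraries, and 149 and 152 in LPS-treated BMDM, against 158 and 157 in untreated BMDM. Neither LPS difference of Slc25a14 passed (0.01 ± 0.18 in resident macrophages and -0.07 ± 0.22 in BMDM).

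Among the outer membrane and orphan members, whose cargo is unknown or little studied, Slc25a45 fell in both origins. It had 192, 201 and 241 normalized reads in LPS-treated resident libraries, against 276, 322 and 343 in untreated resident libraries, and 375 and 332 in LPS-treated BMDM, against 1027 and 949.6 in untreated BMDM. The LPS-treated libraries lay below the untreated ones in each origin (-0.57 ± 0.13, adjusted p = 0.0166 in resident macrophages and -1.48 ± 0.15, adjusted p = 1.48e-05 in BMDM), and the BMDM fall was larger (0.91 ± 0.20, adjusted p = 0.0041). The resident call was lost without untreated resident replicate 3 (adjusted p = 0.0561) or LPS-treated resident replicate 2 (0.0592). Slc25a46, an outer membrane protein that acts in mitochondrial shape, had 1607, 1399.5 and 1574 normalized reads in LPS-treated resident libraries, against 1555, 1414 and 1456 in untreated resident libraries, and 1819 and 1766 in LPS-treated BMDM, against 1253 and 1375 in untreated BMDM. It rose in BMDM (0.45 ± 0.09, adjusted p = 0.00204) and the responses differed by -0.40 ± 0.12, adjusted p = 0.0226, but with equal library totals these values turned to -0.20 and 0.12, and the difference was also lost without untreated BMDM replicate 1 (adjusted p = 0.113) or LPS-treated BMDM replicate 1 (0.0853) or 2 (0.0601).

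Slc25a43 had 79.4, 63.3 and 88.3 normalized reads in LPS-treated resident libraries, against 72.2, 55.1 and 60.01 in untreated resident libraries, and 296 and 248 in LPS-treated BMDM, against 140.4 and 165 in untreated BMDM. It rose in BMDM (0.83 ± 0.22, adjusted p = 0.00896), a call lost without untreated BMDM replicate 1 (adjusted p = 0.0709) or LPS-treated BMDM replicate 1 (0.0737). Slc25a34 had 23.1, 32.2 and 59.9 normalized reads in LPS-treated resident libraries, against 57.1, 65.5 and 49.5 in untreated resident libraries, and 2.06 and 2.71 in LPS-treated BMDM, against 8.20 and 5.48 in untreated BMDM. Both LPS-treated BMDM values correspond to 2 reads, and the fall (-1.20 ± 0.43, adjusted p = 0.0361) was lost without any 1 BMDM library (adjusted p from 0.0545 to 0.191). The Slc25a34 fall was also lost with a pseudocount of 10 and with voom on recovered reads. Slc25a35, Slc25a47 and Slc25a53 passed in neither origin after LPS.

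Proliferation markers moved with the LPS comparison in BMDM. 12 of the 17 fell and 0 rose there, where 29.5% of all tested genes fell and 28.3% rose. The 17 markers summed to 0.0751 to 0.0753% of normalized reads in LPS-treated BMDM, against 0.135 to 0.148% in untreated BMDM. In resident macrophages 0 of 17 passed, with 0.0677 to 0.0966% in LPS-treated libraries, against 0.0558 to 0.104% in untreated libraries. Their part in the carrier changes was not tested. Erythroid markers showed 1 rise and 0 falls of 17 after LPS in resident macrophages and 1 rise and 3 falls in BMDM.

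Genes that work with the carriers, and related transporters with other symbols, gave the following counts after LPS. Among all tested genes, 28.3% rose and 29.5% fell in BMDM, and 7.36% rose and 5.57% fell in resident macrophages. Alternatives were read for members only, so whether calls of listed genes hold with equal library totals was not tested. That scaling moved the BMDM median of all genes from -0.04 to -0.67. Of 16 ATP synthase genes, 6 rose and 0 fell in BMDM, among them Atp5f1 (0.44 ± 0.11, adjusted p = 0.00484) and Atp5b (0.40 ± 0.09, adjusted p = 0.00266), and 0 passed in either direction in resident macrophages. Of 24 enzymes of the citrate, itaconate and aspartate shuttle list, 5 rose and 7 fell in BMDM, and 2 rose and 3 fell in resident macrophages. Irg1, which makes itaconate from a citrate-derived metabolite, rose by 8.42 ± 0.14, adjusted p = 1.03e-10 in BMDM and 1.44 ± 0.12, adjusted p = 0.000117 in resident macrophages. Idh1, a cytosolic isocitrate dehydrogenase, fell in BMDM (-1.59 ± 0.20, adjusted p = 7.01e-05), and Idh2, the mitochondrial one, fell in both (-0.88 ± 0.11, adjusted p = 7.35e-05 in BMDM and -0.53 ± 0.09, adjusted p = 0.00575 in resident macrophages). Got1, a cytosolic aspartate aminotransferase, also fell in both (-0.85 ± 0.09, adjusted p = 1.85e-05 in BMDM and -0.43 ± 0.07, adjusted p = 0.00534 in resident macrophages).

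Of 15 carnitine and fatty acid oxidation genes, 4 rose and 6 fell in BMDM, and 0 rose and 2 fell in resident macrophages. Acadl (1.09 ± 0.08, adjusted p = 9.23e-07) and Etfa (0.49 ± 0.08, adjusted p = 0.00048) gave the largest rises in BMDM, and Crat (-1.55 ± 0.12, adjusted p = 1.2e-06), which acts on carnitine esters, was among the genes that fell most. Cpt1b, the muscle-type carnitine palmitoyltransferase, fell as well (adjusted p = 0.000284), with 1.00 and 1.00 normalized reads in LPS-treated BMDM, against 11.9 and 23.8 in untreated BMDM. Both LPS-treated BMDM values are the table's lowest, so no fold is given. In resident macrophages the falls were those of Acads (-0.45 ± 0.07, adjusted p = 0.00382) and Hadhb (-0.28 ± 0.06, adjusted p = 0.019). Of 19 genes of the path that imports carriers into the inner membrane, 4 rose and 2 fell in BMDM, led by Timm23 (0.98 ± 0.15, adjusted p = 0.000272), Timm17a (0.90 ± 0.12, adjusted p = 8.79e-05), Timm9 (-1.14 ± 0.20, adjusted p = 0.000774) and Timm8a1 (-0.66 ± 0.18, adjusted p = 0.00928), and 0 passed in resident macrophages.

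Of 16 uncoupling proteins and other mitochondrial transporters, 3 rose and 6 fell in BMDM, and 0 rose and 3 fell in resident macrophages. In BMDM the largest rises were those of Vdac3 (0.93 ± 0.11, adjusted p = 3.29e-05), a channel of the outer membrane, and Mpc1 (0.65 ± 0.11, adjusted p = 0.000383), a subunit of the pyruvate carrier, and the largest falls those of Ucp3 (-3.46 ± 0.43, adjusted p = 6.05e-05) and Sfxn3 (-1.84 ± 0.13, adjusted p = 6.01e-07). In resident macrophages Ucp3 (-1.24 ± 0.35, adjusted p = 0.0457) and Ucp2 (-0.37 ± 0.09, adjusted p = 0.0207) fell most. Ucp3 had 1.03 and 1.35 normalized reads in LPS-treated BMDM, against 29.2 and 18.3 in untreated BMDM. The LPS-treated levels lie so near the table's lowest value that its fitted difference in BMDM depends on the pseudocount. Of 12 regulators of mitochondrial biogenesis, 6 rose and 5 fell in BMDM, led by Ppargc1b (1.59 ± 0.27, adjusted p = 0.000553) and Gabpb1 (1.57 ± 0.07, adjusted p = 2.61e-08) above and Myc (-2.68 ± 0.16, adjusted p = 1.89e-07) and Polrmt (-0.82 ± 0.14, adjusted p = 0.000494) below. In resident macrophages 3 rose and 0 fell, with Myc (0.46 ± 0.13, adjusted p = 0.0434) and Gabpb1 (0.36 ± 0.06, adjusted p = 0.00412) largest.

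The second comparison set resident macrophages against BMDM under each treatment. With LPS, 11 members were higher and 21 lower in resident macrophages, where 36.7% of all tested genes were higher and 34.5% lower. Without LPS, 11 members were higher and 19 lower in resident macrophages, where 39.2% of all tested genes were higher and 32.6% lower. The median log2 difference over the 39 members was -0.23 with LPS, where it was 0.03 over all tested genes, and -0.22 without LPS, where it was 0.08. The 2 contrasts use different libraries: 6 members were higher in resident macrophages in both, 17 were lower in both, and Slc25a22 and Slc25a42 passed in opposite directions. All 17 erythroid markers were higher in resident macrophages under both treatments, as were 16 of the 17 neutrophil markers with LPS and 17 without, and the part of such cells in the carrier differences was not tested.

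**Figure D4:**
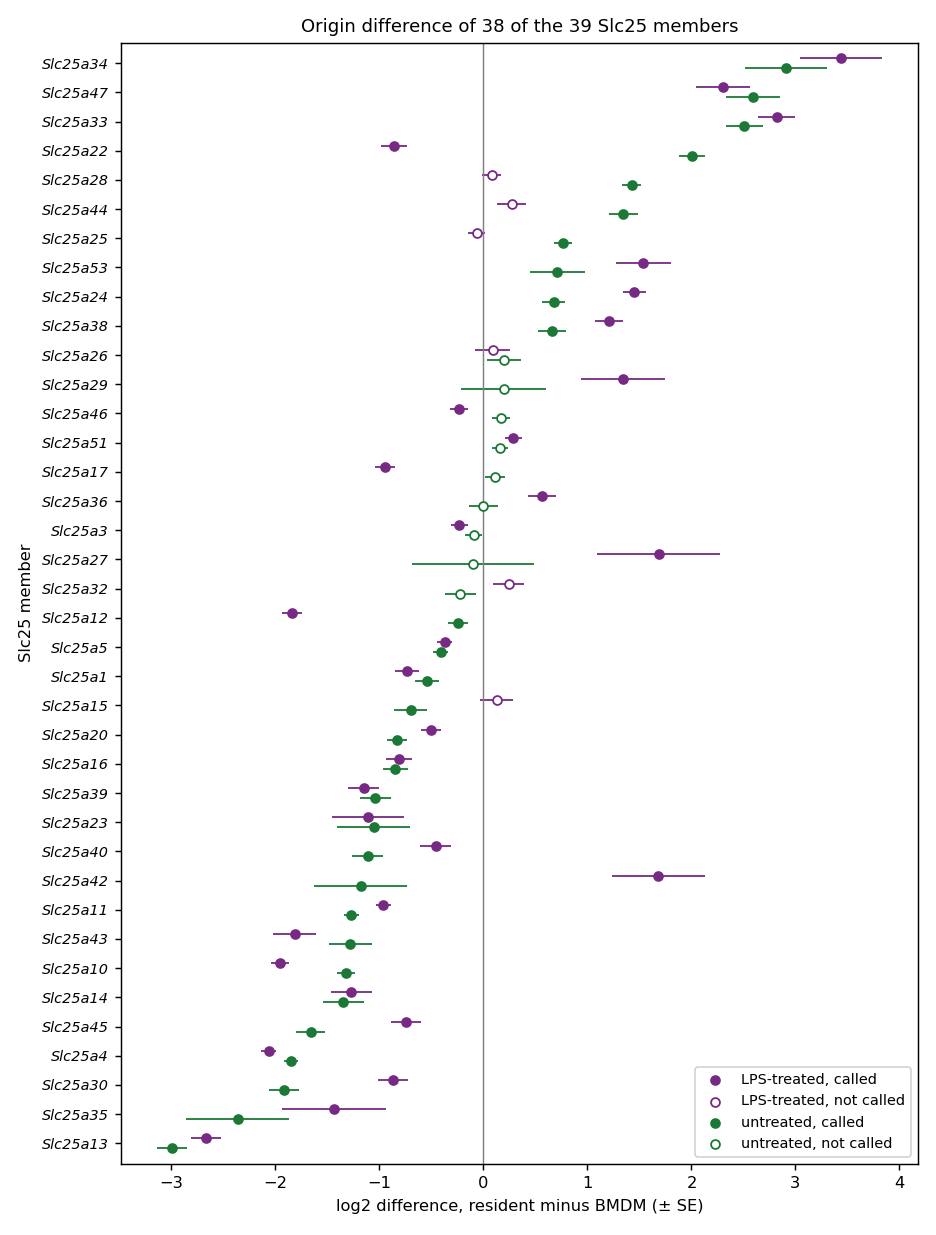
Log2 difference between resident macrophages and BMDM (horizontal axis, bars ± SE from limma) for 38 of the 39 members with LPS (purple) and untreated (green); filled points have an adjusted p under 0.05. Slc25a22 and Slc25a42 lie on opposite sides of 0 under the 2 treatments, and Slc25a13 and Slc25a34 lie near the ends of both.

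Carriers of carboxylates and of aspartate were lower in resident macrophages, where 34.5% of all tested genes were lower with LPS and 32.6% untreated. All 3 carboxylate carriers were lower under both treatments: Slc25a10 (-1.96 ± 0.09, adjusted p = 3.37e-08 with LPS and -1.32 ± 0.09, adjusted p = 4.26e-07 untreated), Slc25a11 (-0.96 ± 0.07, adjusted p = 1e-06 with LPS and -1.27 ± 0.07, adjusted p = 1.1e-07 untreated) and Slc25a1 (-0.74 ± 0.12, adjusted p = 0.000226 with LPS and -0.54 ± 0.12, adjusted p = 0.00179 untreated). Citrin, Slc25a13, gave the lowest untreated difference of the family, -2.99 ± 0.14, adjusted p = 3.7e-08, and -2.66 ± 0.14, adjusted p = 1.15e-07 with LPS, with resident libraries at 90.3 to 115 normalized reads and BMDM at 623 to 852. Its paralog Slc25a12 was lower with LPS (-1.84 ± 0.10, adjusted p = 1.12e-07), and untreated it differed by -0.24 ± 0.10, adjusted p = 0.0471. That untreated call of Slc25a12 was lost without any 1 BMDM library, without untreated resident replicate 1 or without LPS-treated resident replicate 2 or 3 (adjusted p from 0.0525 to 0.181).

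The ADP/ATP carriers were lower as well. Slc25a4 was lower in resident macrophages by -2.06 ± 0.07, adjusted p = 6.27e-09 with LPS and -1.85 ± 0.07, adjusted p = 6.71e-09 untreated, and its resident and BMDM libraries lay far apart under both treatments. Slc25a5 was lower with LPS (-0.37 ± 0.07, adjusted p = 0.00069) and untreated (-0.41 ± 0.07, adjusted p = 0.000356), and with equal library totals the LPS-treated value was -0.04 (adjusted p = 0.709). Slc25a3 was lower with LPS only (-0.23 ± 0.08, adjusted p = 0.0257), a value that turned to 0.10 with equal library totals and 0.066 with quantile normalization. The Slc25a3 call was also lost without LPS-treated resident replicate 2 (adjusted p = 0.0552) or 3 (0.0727) or LPS-treated BMDM replicate 1 (0.150) or 2 (0.0704). Slc25a24 was higher in resident macrophages under both treatments (1.45 ± 0.11, adjusted p = 1.46e-06 with LPS and 0.68 ± 0.11, adjusted p = 0.000328 untreated). The LPS-treated groups of Slc25a25 overlapped (-0.06 ± 0.08, adjusted p = 0.502), and it was higher in untreated resident macrophages (0.77 ± 0.08, adjusted p = 1.6e-05).

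Slc25a22 changed sides with treatment. It was lower in resident macrophages with LPS (-0.86 ± 0.12, adjusted p = 0.000124) and higher without LPS (2.01 ± 0.12, adjusted p = 2.37e-07). Untreated BMDM lay lowest and LPS-treated BMDM highest among its groups. Slc25a28 and Slc25a44 were higher in untreated resident macrophages (1.42 ± 0.09, adjusted p = 3.69e-07 and 1.35 ± 0.14, adjusted p = 1.25e-05), and with LPS neither passed (0.08 ± 0.09 and 0.27 ± 0.14). Slc25a17 was lower with LPS (-0.95 ± 0.10, adjusted p = 1.2e-05), and its untreated groups overlapped (0.11 ± 0.10, adjusted p = 0.318). Slc25a38 was higher under both treatments (1.21 ± 0.13, adjusted p = 1.99e-05 with LPS and 0.66 ± 0.13, adjusted p = 0.0013 untreated). Most erythroid, neutrophil and other marrow cell markers were higher under both treatments too, and their part in the Slc25a38 difference was not tested. Slc25a39 was lower under both (-1.15 ± 0.15, adjusted p = 5.62e-05 with LPS and -1.04 ± 0.15, adjusted p = 0.000113 untreated).

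Slc25a34, Slc25a47, Slc25a33 and Slc25a53 were higher in resident macrophages under both treatments. Slc25a34 was higher by 3.44 ± 0.40, adjusted p = 2.56e-05 with LPS and 2.91 ± 0.40, adjusted p = 8.19e-05 untreated. BMDM held only 2 to 9 reads of it per library, and its differences ranged over the alternatives from 1.89 to 3.85 with LPS and from 1.70 to 3.16 untreated. Slc25a47 had 84.97, 75.1 and 87.3 normalized reads in LPS-treated resident libraries, against 83.8, 90.2 and 65.7 in untreated resident libraries, and 12.3 and 20.3 in LPS-treated BMDM, against 11.9 and 12.8 in untreated BMDM. Its resident libraries lay above all BMDM libraries (2.30 ± 0.26, adjusted p = 2.4e-05 with LPS and 2.59 ± 0.26, adjusted p = 9.63e-06 untreated). Slc25a33 was higher by 2.82 ± 0.18, adjusted p = 3.57e-07 with LPS and 2.51 ± 0.18, adjusted p = 7.36e-07 untreated, and 14.9% of its exon bases overlap another annotated gene. Slc25a53 had 48.95, 45.1 and 61.8 normalized reads in LPS-treated resident libraries, against 41.02, 38.9 and 47.6 in untreated resident libraries, and 15.4 and 18.96 in LPS-treated BMDM, against 20.97 and 31.1 in untreated BMDM. It was higher by 1.54 ± 0.27, adjusted p = 0.000443 with LPS and 0.71 ± 0.27, adjusted p = 0.0337 untreated. The untreated call of Slc25a53 was lost without untreated resident replicate 3 (adjusted p = 0.0868) or untreated BMDM replicate 1 (0.277), and with quantile normalization it turned to -0.18.

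On the lower side, Slc25a35 had 10.2, 19.3 and 8.83 normalized reads in LPS-treated resident libraries, against 7.13, 25.6 and 21.9 in untreated resident libraries, and 34.96 and 33.9 in LPS-treated BMDM, against 87.5 and 85.9 in untreated BMDM. It was lower in resident macrophages by -1.44 ± 0.50, adjusted p = 0.0243 with LPS and -2.36 ± 0.50, adjusted p = 0.00162 untreated, and 31.3% of its exon bases overlap Rangrf on the opposite strand, so reads of the pair cannot be told apart without strand. The LPS-treated call of Slc25a35 was lost without LPS-treated resident replicate 1 (adjusted p = 0.0574) or 3 (0.0749) or LPS-treated BMDM replicate 1 (0.0974) or 2 (0.0893). Slc25a43 was lower with LPS (-1.81 ± 0.20, adjusted p = 2.19e-05) and untreated (-1.28 ± 0.20, adjusted p = 0.000256). Slc25a30 was lower with LPS (-0.87 ± 0.14, adjusted p = 0.000321) and untreated (-1.92 ± 0.14, adjusted p = 1.04e-06). Slc25a45 was lower with LPS (-0.74 ± 0.14, adjusted p = 0.000786) and untreated (-1.66 ± 0.14, adjusted p = 2.49e-06). Slc25a14 was lower with LPS (-1.27 ± 0.20, adjusted p = 0.000241) and untreated (-1.35 ± 0.20, adjusted p = 0.000157).

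Low or small differences completed the set. Slc25a42 was higher with LPS (1.68 ± 0.45, adjusted p = 0.00634) and lower untreated (-1.18 ± 0.45, adjusted p = 0.0348). The first was lost without LPS-treated BMDM replicate 1 (adjusted p = 0.0873), and the second without any 1 untreated library of either origin (adjusted p from 0.0533 to 0.148). Slc25a27 and Slc25a29 were higher with LPS (adjusted p = 0.0257 and 0.0128), against BMDM values of 5 reads or fewer. The Slc25a27 call was lost without LPS-treated resident replicate 1 or 3 or either LPS-treated BMDM library (adjusted p from 0.0586 to 0.0962), and that of Slc25a29 without LPS-treated BMDM replicate 1 (0.138). Slc25a46 was lower with LPS by -0.23 ± 0.09, adjusted p = 0.0311, which turned to 0.10 with equal library totals and was lost without LPS-treated resident replicate 2 or LPS-treated BMDM replicate 1 (adjusted p = 0.146) or 2 (0.0892).

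Of the others, Slc25a20 (-0.50 ± 0.10 and -0.83 ± 0.10), Slc25a16 (-0.81 ± 0.12 and -0.85 ± 0.12), Slc25a23 (-1.11 ± 0.35 and -1.06 ± 0.35) and Slc25a40 (-0.46 ± 0.15 and -1.11 ± 0.15) were lower in resident macrophages with LPS and untreated. Slc25a40 with LPS lost its call without LPS-treated BMDM replicate 1 (adjusted p = 0.0836) or 2 (0.0686), and so did Slc25a23 with LPS without LPS-treated BMDM replicate 2 (0.108) and untreated without either untreated BMDM library (0.0780 and 0.0815). Slc25a36 (0.56 ± 0.14) and Slc25a51 (0.29 ± 0.08) were higher with LPS only, the second lost without LPS-treated BMDM replicate 1 (adjusted p = 0.0543). Slc25a15 was lower untreated only (-0.70 ± 0.16). With equal library totals, calls with LPS were also lost for Slc25a20 (-0.16), Slc25a23 (-0.77), Slc25a35 (-1.11), Slc25a40 (-0.12) and Slc25a45 (-0.41), and with quantile normalization for Slc25a5 (-0.05), Slc25a42 (0.31), Slc25a46 (-0.14) and Slc25a53 (0.53).

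Among genes that work with the carriers, most ATP synthase, import, shuttle and fatty acid oxidation genes were lower in resident macrophages under both treatments, where 34.5% of all tested genes were lower with LPS and 32.6% untreated. Regulators of biogenesis were more often higher than lower untreated, where 39.2% of all tested genes were higher and 32.6% lower. With LPS, 5 of 12 were higher, near the 36.7% of all tested genes, and 3 were lower, where 34.5% of all tested genes were. ATP synthase genes were higher for 0 and lower for 15 of 16 with LPS, and for 0 and 12 untreated, led under both by Atpif1, the synthase inhibitor (-1.47 ± 0.14, adjusted p = 6.81e-06 with LPS and -1.13 ± 0.14, adjusted p = 4.38e-05 untreated), and Atp5k (-1.44 ± 0.10, adjusted p = 9.04e-07 and -0.98 ± 0.10, adjusted p = 1.33e-05). Import genes were higher for 1 and lower for 12 of 19 with LPS, and for 2 and 10 untreated, with Timm10b (-1.23 ± 0.14, adjusted p = 2.89e-05) lowest with LPS and Tomm5 (-1.06 ± 0.19, adjusted p = 0.000646) lowest untreated. Shuttle and cycle enzymes were higher for 4 and lower for 16 of 24 with LPS, and for 5 and 15 untreated. Irg1 was lower in resident macrophages with LPS (-2.09 ± 0.13, adjusted p = 3.09e-07) and higher untreated (4.89 ± 0.13, adjusted p = 7.88e-10). Me2, a mitochondrial malic enzyme, was higher under both (1.57 ± 0.09, adjusted p = 1.85e-07 with LPS and 1.41 ± 0.09, adjusted p = 3.39e-07 untreated).

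Fatty acid oxidation genes were higher for 4 and lower for 10 of 15 with LPS, and for 2 and 9 untreated, among them Acaa2 (-1.89 ± 0.12, adjusted p = 3.65e-07 and -1.71 ± 0.12, adjusted p = 6.53e-07) and Hadh (-1.37 ± 0.17, adjusted p = 3.75e-05 and -1.77 ± 0.17, adjusted p = 5.56e-06). Other mitochondrial transporters were higher for 6 and lower for 9 of 16 with LPS, and for 2 and 8 untreated, with Ucp1 highest under both (3.62 ± 0.42, adjusted p = 2.64e-05 with LPS and 4.23 ± 0.42, adjusted p = 7.98e-06 untreated). Ucp1 had 3.08 and 1.35 normalized reads in LPS-treated BMDM, against 4.56 and 1.83 in untreated BMDM, all near the table's lowest value, so that the size of these differences depends on the pseudocount. Regulators of biogenesis were higher for 5 and lower for 3 of 12 with LPS, and for 7 and 0 untreated, with Myc highest with LPS (3.12 ± 0.14, adjusted p = 4.47e-08) and Gabpb1 highest untreated (1.29 ± 0.07, adjusted p = 5.85e-08).

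The members shared little in genome position. They lay on 18 chromosomes, with at most 5 on any of them. By their GENCODE ends, Slc25a29 and Slc25a47 are separated by 162 bases on chromosome 12 and are read in opposite directions. The RefSeq start window of Slc25a47, chr12:108850879-108851178, lies farther from Slc25a29. After LPS in BMDM, Slc25a29 fell (-1.66 ± 0.45) while Slc25a47 did not pass (0.34 ± 0.29). Slc25a43 and Slc25a5 lie 18448 bases apart on chromosome X, and the first rose in BMDM (0.83 ± 0.22) while the second did not pass (-0.06 ± 0.08). The exons of 28 members overlap no other annotated gene. Elsewhere the overlap was largest for Slc25a35 and Slc25a33, then 8.92% for Slc25a11 with Rnf167, 7.06% for Slc25a46 and 6.60% for Slc25a10.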

How the data were processed

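RNA sequencing libraries were grouped by the labels, and all 10 were used. The authors deposited signal values, which are read counts per gene scaled by a factor for each library: values under 1000 reads were whole multiples of 1 step per library (0.892 to 1.36) within 0.02 in 100% of cases. HISAT 0.1.7 and build mm10 are named in the submitters' processing notes. For the counting program and its use of strand, the sources used here give nothing.

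Log2(value + 1) was taken for the 13755 genes reaching 10 in 2 or more libraries (54 left out) and fitted with limma 3.58.1 in R 4.3.3, with 4 groups in 1 model, 6 residual degrees of freedom and variances moderated with a trend. Tests are 2-sided, adjusted within each of 5 contrasts by the Benjamini-Hochberg method, and called at an adjusted p under 0.05. Differences understate changes of low genes. The members, lists and tests were chosen with earlier results of these data known. All members enter the counts, and 1 member and 1 listed gene are not reported here by name. Libraries' values are given for members called in the difference of responses, the 6 largest rises and falls of each other contrast and 13 members of well-known role, and up to 2 rises and 2 falls per related list. Of the value columns, 13556 entered the fit across all genes without being listed by name. Lengths and positions are from GENCODE vM21. Markers of B lineage, T and NK cells, megakaryocytes and eosinophils with basophils and mast cells were also mostly higher in resident libraries (untreated: 11 of 12, 9 of 10, 9 of 10 and 10 of 11). Alternatives were other pseudocounts (0.1 and 10), filters, scalings and variance models, leaving out each library or both with Y-linked transcripts and, chosen after seeing the data, voom on recovered reads. Equal library totals were always summed without Rn45s. That gene held 4.70% of normalized reads in untreated BMDM replicate 2 and 0.151 to 1.34% in the other libraries. The fit was tested on simulated data, drawn with the same spread setting for every gene and group. That setting is simpler than these libraries, so the test does not vouch for the calls. Figures used Python 3.11.15 and matplotlib 3.10.9.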

Additional observations from a re-analysis of the deposited data

Results flagged for a closer look

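The LPS responses of 17 members differed between origins by the interaction test of limma (adjusted p from 5.58e-07 to 0.0408), of which 9 were above 0 and 8 below 0, where 19.0% and 22.8% of all tested genes were. As the response in resident macrophages minus that in BMDM (log2), the values below 0 were -2.87 for Slc25a22, -1.60 for Slc25a12, -1.35 for Slc25a28, -1.08 for Slc25a44, -1.06 for Slc25a17, -0.83 for Slc25a25, -0.64 for Slc25a10 and -0.40 for Slc25a46. Those above 0 were 2.86 for Slc25a42, 1.04 for Slc25a30, 0.91 for Slc25a45, 0.83 for Slc25a15, 0.77 for Slc25a24, 0.65 for Slc25a40, 0.56 for Slc25a36, 0.55 for Slc25a38 and 0.31 for Slc25a11. Groups of 2 or 3 libraries were not searched for a library that stood apart.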

How the results depend on the processing

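Of 109 calls of members over the 5 contrasts, 68 were made in the same direction under all 21 alternatives that could give them, 41 were lost in at least 1, and 8 changed sign in at least 1. Of 86 values that were not called, 43 were called in at least 1. In resident macrophages after LPS, fitting the groups compared alone gave 0 rises and 0 falls, equal library totals gave 8 falls, limma without its trend gave 2 falls, and leaving out both libraries with Y-linked transcripts gave 2 rises. Leaving out 1 library gave 1 to 2 rises, with 2 without untreated resident replicate 1, and 1 to 5 falls, with 1 or 2 without untreated resident replicate 3 or LPS-treated resident replicate 2 or 3. With equal totals, LPS in BMDM gave 5 rises and 28 falls, LPS-treated resident macrophages against BMDM 17 higher and 13 lower, and the difference of responses 19 above 0. A filter at 100 left 5 higher in the LPS-treated comparison of origins. Leaving out 1 library gave 8 to 9 rises and 11 to 18 falls in BMDM, 10 to 11 higher and 16 to 19 lower for untreated origins, 7 to 12 higher (7 without LPS-treated BMDM replicate 1) and 16 to 21 lower with LPS, and 4 to 10 above 0 (4 without untreated BMDM replicate 1, 5 without either LPS-treated BMDM library) and 7 to 9 below 0 for the difference.

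Equal totals put the median of all genes at -0.12 (0.0024 as deposited) in resident macrophages after LPS, -0.67 (-0.04) in BMDM, 0.36 (0.03) for LPS-treated origins, -0.11 (0.08) for untreated origins and 0.52 (0.02) for the difference, and relative to it the members' medians were -0.15, -0.27, -0.26, -0.31 and 0.08. Under equal totals the members' median with LPS between origins was 0.10, against -0.23 as deposited. The share of all calls that were rises became 27.0% (56.9% as deposited), 20.8% (49.0%), 68.8% (51.5%), and 76.9% (45.5%) in resident LPS, BMDM LPS, LPS-treated origins and the difference. Quantile normalization put the median of all genes at -0.21 in BMDM, -0.09 for LPS-treated origins, -0.18 for untreated origins and 0.14 for the difference, with rises at 41.5% of calls (54.6%) for untreated origins and 56.9% (45.5%) for the difference. Signs changed with equal totals for Slc25a10 (-0.16) and Slc25a46 (-0.20) after LPS in BMDM, for Slc25a3 (0.10) and Slc25a46 (0.10) between LPS-treated origins and for Slc25a46 (0.12) in the difference. They changed with quantile normalization for Slc25a53 untreated (-0.18) and, between LPS-treated origins, for Slc25a27 (-0.0046), Slc25a29 (-0.30) and Slc25a3 (0.066). Over all genes, normalized reads totalled 29.9 to 32.4 M in LPS-treated and 26.55 to 30.96 M in untreated resident libraries. They totalled 38.6 to 38.77 M in LPS-treated and 24.7 to 25.96 M in untreated BMDM. Equal totals take such differences between libraries out of every gene. Why the totals differ, and which scaling holds for these cells, was not tested. Count-model tests on recovered reads were not run, and voom on those reads stood in for them. Voom ended the calls of Slc25a33 and Slc25a34 after LPS in BMDM, Slc25a38 in the difference and Slc25a12 between untreated origins. Between LPS-treated origins it ended those of Slc25a3, Slc25a27 and Slc25a46. A pseudocount of 10 ended the calls of Slc25a34 after LPS in BMDM and Slc25a27 between LPS-treated origins. No paired analysis was possible because the labels give no numbers that pair libraries: replicates are numbered in accession order, and whether any share an animal was not tested. Depth limits Slc25a27, Slc25a34, Slc25a29 and Slc25a42, which rest on 0 to 9 reads in LPS-treated BMDM.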
